A study of Mus musculus with 24 samples.

Results

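The water and potassium channel complex of the astrocyte endfoot was followed through 24 RNA-seq libraries of mouse cells as 7 named genes: Aqp4, Kcnj10, Kcnj16, Dag1, Dtna, Mlc1 and Hepacam. All 7 were found by identifier among the 49671 genes counted, and all 7 were among the 19691 genes tested after genes with low counts had been removed. The libraries fell into 6 groups of 4 replicates. Neural stem cells (NSC) came from the mouse embryonic stem cell line GSC-5003, of C57BL/6 N origin, and were kept in FGF and EGF at passages 50 to 60. AGES, the astrocytes made from this embryonic stem cell line, were the same NSCs after 3 to 5 days with 20 ng/ml BMP4 and without those growth factors. The coating was gelatin for NSCs and poly-L-ornithine with laminin for AGES. Neonatal astrocytes (neoAC) were taken from C57BL/6J pups of 4 to 8 days and adult astrocytes (AdAC) from C57BL/6J mice of 100 to 140 days, by magnetic sorting with the ACSA-2 antibody, whose antigen is encoded by Atp1b2. Sorted cells were either snap-frozen at once (direct) or grown for 7 to 10 days on poly-L-lysine and laminin (CellC). Each replicate of primary cells was a separate isolation from 2 pooled mice of mixed sex, while all NSC and AGES replicates go back to that single line and differ in passage, so their spread is that of cultures and not of animals.

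The endfoot is the part of an astrocyte that wraps blood vessels. Its membrane holds AQP4, a water channel, and an inwardly rectifying potassium channel whose pore is built from the products of Kcnj10 alone or of Kcnj10 and Kcnj16 together, which takes up potassium released by active neurons. Dystroglycan, encoded by Dag1, spans this membrane and binds laminin, agrin and perlecan of the vascular basal lamina outside and dystrophin or utrophin inside, and alpha-dystrobrevin, encoded by Dtna, joins the same complex and helps to hold AQP4 in place. MLC1 and the adhesion protein GlialCAM, encoded by Hepacam, form another membrane complex at endfeet and between astrocytes, which takes part in the regulation of chloride currents and cell volume, and loss of either in humans causes a leukodystrophy with brain swelling and cysts. The questions put to the data were which of these genes astrocytes keep when they are taken into culture, and which of them AGES express.

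Promoters were looked up in RefSeq for GRCm38.p6, 250 bases before to 50 bases after a transcription start. The table held 9 promoters for 5 of the members. The promoters of Kcnj10 and Kcnj16 are shown because the products of these genes share a channel while their ratio spanned the widest range of the 3 pairs examined within libraries, and that of Dag1 because its level varied least but for Dtna. Capitals mark matches, on either strand, to the letters searched (TTGGCA, which NFI factors recognise; ACAAAG and ACAATG, SOX-like; TGANTCA, AP-1; TTCNNNGAA, STAT; GGGCGG, the GC box; TATAAA, the TATA box). All 3 windows hold 50 bases of the first Gencode exon of their gene at their 3′ end and no other exon of it.
Kcnj10, chr1:172340960-172341259, plus strand: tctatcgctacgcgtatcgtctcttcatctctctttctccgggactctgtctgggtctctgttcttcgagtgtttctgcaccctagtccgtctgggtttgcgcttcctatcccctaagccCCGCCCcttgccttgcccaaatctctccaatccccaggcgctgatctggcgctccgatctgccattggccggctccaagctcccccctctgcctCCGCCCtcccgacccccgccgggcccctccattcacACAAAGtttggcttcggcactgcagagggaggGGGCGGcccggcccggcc
Kcnj16, chr11:110967783-110968082, plus strand, the first of 4 promoters listed: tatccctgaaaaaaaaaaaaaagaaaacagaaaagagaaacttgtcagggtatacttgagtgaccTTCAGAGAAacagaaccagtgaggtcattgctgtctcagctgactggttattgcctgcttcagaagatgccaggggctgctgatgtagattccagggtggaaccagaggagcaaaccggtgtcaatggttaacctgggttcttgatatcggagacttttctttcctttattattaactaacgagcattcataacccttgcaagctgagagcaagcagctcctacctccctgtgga
Dag1, chr9:108263909-108264208, minus strand, the first of 2 listed: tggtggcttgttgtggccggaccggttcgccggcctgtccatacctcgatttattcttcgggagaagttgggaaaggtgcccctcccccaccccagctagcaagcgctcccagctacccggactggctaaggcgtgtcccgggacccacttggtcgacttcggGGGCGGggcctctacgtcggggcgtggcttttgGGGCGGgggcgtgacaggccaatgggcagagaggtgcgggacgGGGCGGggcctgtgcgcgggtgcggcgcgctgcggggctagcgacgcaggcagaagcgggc

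The Kcnj10 promoter had a GC content of 63.7% with 21 CpG dinucleotides and the Dag1 promoter 69.7% with 30, against medians of 52.7% and 7 over the 32851 promoters of the table. The Kcnj16 promoter shown had 44.3% and 3 CpG dinucleotides, and its other 3 promoters had between 1 and 8. Kcnj10 had 3 GC boxes, starting at -130, -36 and 32 relative to the first transcribed base at 0, and ACAAAG at 0, and Dag1 had 3 GC boxes at -87, -54 and -11. Such letters are common, since 35.7% of all promoters in the table hold a GC box and 18.7% hold ACAAAG. Kcnj16 had none of these in the window shown and matched only TTCNNNGAA, at -185, which 8.30% of all promoters hold. Its promoter 2 held TTGGCA at -166, promoter 3 TATAAA at -133, and promoter 4 TTGGCA at -248 and a GC box at -46. TATAAA is held by 13.6% of all promoters. Which promoter of Kcnj16 these cells use was not tested. The windows of Mlc1 and Hepacam lay almost wholly inside Gencode exons (288 and 300 of 300 bases) and are not printed. No letters searched were found in that of Mlc1, and that of Hepacam held TTGGCA at -39, found in 14.1% of all promoters, and ACAAAG at 0.

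The depth was 27904126 to 37997368 gene counts a library (median 32239904). Levels are given as CPM, the usual unit of counts scaled to library size, after TMM scaling, and the lowest count of any member in any library was 41, for Aqp4 in an NSC library. Libraries of a group correlated with one another at 0.985 or more over the log2 CPM of all genes tested, and with libraries of other groups at 0.928 at most. The summed CPM of 8 astrocyte markers, Gfap, Slc1a3 and Slc1a2 the most abundant, lay between 19737 and 21867 in neoAC direct, between 15458 and 16139 in AdAC direct, between 6722 and 7462 in neoAC CellC and between 876 and 1340 in AdAC CellC, and in AGES the sum of 54836 to 59718 was mostly Gfap. Every marker of that list was above 3 counts in every group. A list of 7 oligodendrocyte markers, Mbp and Cnp among them, summed to 25845 to 28652 CPM in AdAC direct, above the astrocyte sum of the same libraries, to 4119 to 10498 in AdAC CellC and to at most 394 elsewhere. Mural markers (873 to 1042 CPM) and meningeal fibroblast markers (999 to 1428 CPM) had their highest sums in AdAC CellC. The mural sum there was mostly Acta2 (813.2 ± 83.46 CPM), and 4 of the 6 mural markers were lower than in AdAC direct and 2 higher. The fibroblast sum there was mostly Col1a1 (813.3 ± 147.1 CPM) and Col1a2 (446.5 ± 64.96 CPM). Of the 6 fibroblast markers, 4 were higher in neoAC CellC than in AdAC CellC and 2 lower. Ependymal markers had their highest sums in neoAC CellC (1518 to 1941 CPM) and AdAC direct (1073 to 1226 CPM). The fixed lists for oligodendrocyte precursors, microglia, neurons and neural stem cells reached at most 2149, 57.0, 84.6 and 12128 CPM in any library. Among single libraries, AdAC CellC replicate 1 had the lowest astrocyte and oligodendrocyte sums of its group, and neoAC direct replicate 2 had an endothelial sum of 273 CPM and a microglial sum of 57.0 CPM, against at most 109 and 20.2 CPM in the other replicates. The part of these cells in the results that follow was not tested, and in bulk RNA fewer cells of a type and less RNA per cell cannot be told apart.

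**Figure D1:**
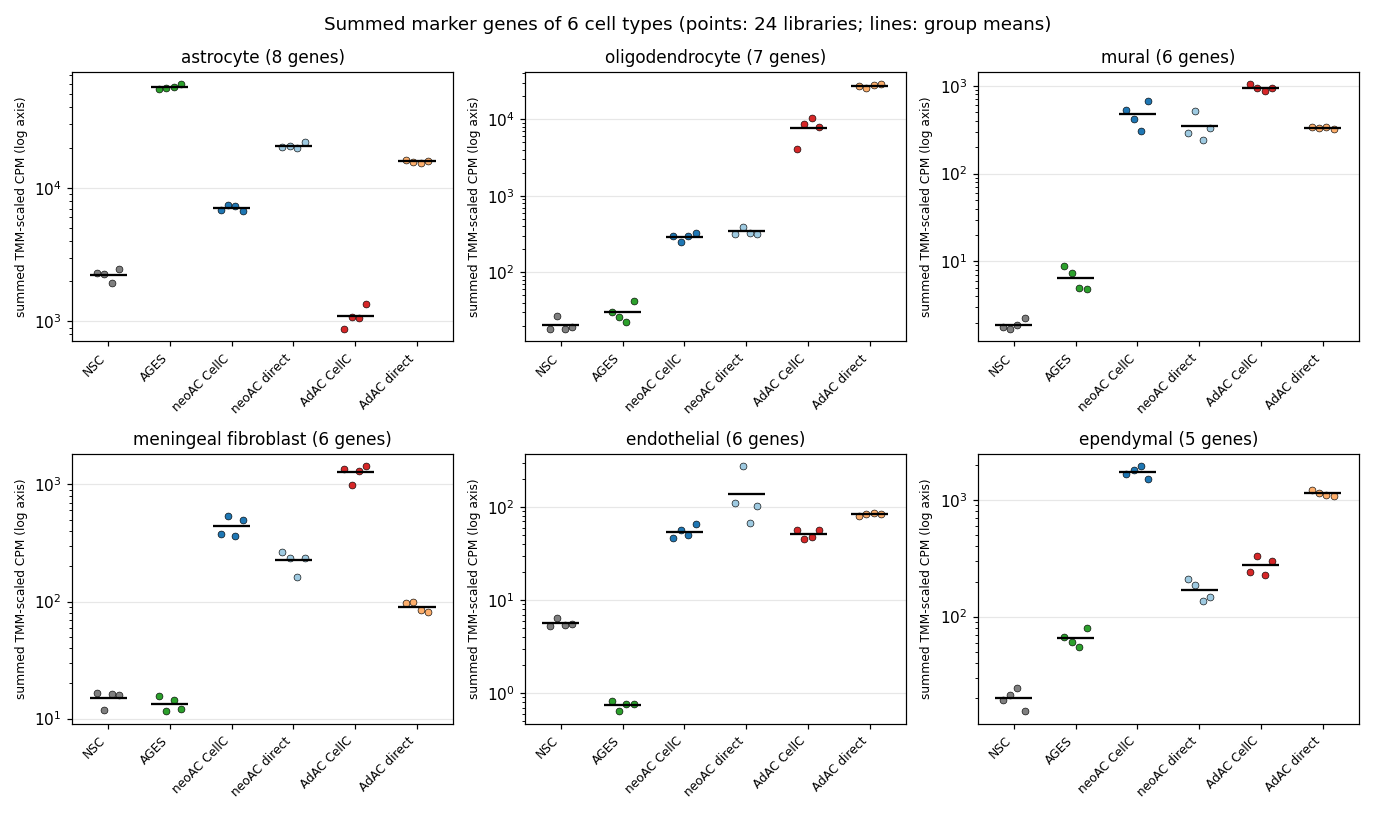
Summed TMM-scaled CPM (log axis) of the marker genes of 6 cell types in each of the 24 libraries, as points, with lines at the group means. The astrocyte sum was at or below 1340 CPM only in the 4 AdAC CellC libraries, and the oligodendrocyte sum at or above 4119 CPM only in the adult libraries.

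Beside neighbouring pairs of groups that are tested in the following orders of levels, and that are no comparison of their own further on, the share of all genes called by edgeR was 73.8% for AGES and neoAC direct, 80.4% for AGES and AdAC direct, 70.7% for neoAC direct and AdAC CellC, 74.0% for neoAC CellC and AdAC direct, 77.3% for NSC and AdAC CellC, 80.6% for NSC and neoAC CellC and 86.2% for NSC and AdAC direct.

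Aqp4, the water channel gene (chr18:15389496-15410982 of GRCm38, minus strand), spanned 1088-fold between its highest and lowest group means. In neoAC direct its CPM were 1573, 1661, 1457 and 2316 in replicates 1 to 4, and in neoAC CellC they were 614, 1145, 967 and 1081. In AdAC direct they were 586, 580, 539 and 691, and in AdAC CellC 41.6, 68.0, 53.0 and 71.0. The 4 cultured adult libraries thus lay below every other library of primary cells. AGES had 273, 156, 235 and 315 CPM, between the directly isolated and the cultured adult cells, while NSCs had 1.70, 2.03, 1.34 and 1.37 CPM. In the order neoAC direct, neoAC CellC, AdAC direct, AGES, AdAC CellC and NSC, every neighbouring pair differed in edgeR's quasi-likelihood test (adjusted p between 1.53e-14 and 0.00535), although neoAC CellC replicate 1 reached down into the range of AdAC direct.

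Kcnj10, which encodes the pore subunit of the endfoot potassium channel (chr1:172341210-172374085, plus strand), had its highest level in a culture. The CPM were 1783, 1393, 1483 and 1433 in neoAC CellC, and 838, 920, 830 and 1017 in neoAC direct. AdAC direct had 1132, 1104, 1047 and 1148 CPM, and AdAC CellC had 210, 323, 345 and 382. No library of one of these groups overlapped another group, yet the means of neoAC CellC, AdAC direct and neoAC direct could not be separated from their neighbours in the fit of all groups, at log2 differences of 0.46 (95% interval 0.02 to 0.90, edgeR adjusted p = 0.0557) and 0.30 (-0.14 to 0.74, edgeR adjusted p = 0.214). When only the groups compared were fitted, both differences passed (edgeR adjusted p = 0.000144 and 0.00971). AGES had 20.3, 14.2, 9.16 and 24.5 CPM, below every library of primary cells, and NSCs had 2.61, 3.89, 1.91 and 1.81.

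Kcnj16 encodes the subunit that joins that of Kcnj10 in mixed channels and makes them sensitive to pH (chr11:110968033-111027968, plus strand). Per kilobase of exon it lay below Kcnj10 in every group of primary cells, at 27.4 against 167 CPM per kb in neoAC direct, and its order of groups was unlike that of Kcnj10. The directly isolated cells led, with 90.8, 98.1, 94.8 and 147 CPM in neoAC direct and 108, 92.0, 95.4 and 113 in AdAC direct. neoAC CellC had 35.1, 40.8, 36.3 and 30.4 CPM, and AdAC CellC had 5.40, 6.38, 4.49 and 7.35. NSCs, with 28.6, 20.3, 38.0 and 25.0 CPM, overlapped neoAC CellC, which was not so for any of the other members but Dag1. AGES varied most, from 29.9 and 22.6 CPM in replicates 1 and 2 to 5.77 and 11.3 in replicates 3 and 4. Of the neighbours in its order, neoAC direct and AdAC direct (log2 difference 0.08, interval -0.55 to 0.70), neoAC CellC and NSC (0.35, -0.29 to 0.99) and NSC and AGES (0.69, 0.04 to 1.35) did not pass the test, and AGES overlapped AdAC CellC although that pair did pass (edgeR adjusted p = 0.000271).

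Dag1 (chr9:108204634-108263958, minus strand) was expressed in every group and differed 4.52-fold between the extremes. AGES were highest with 1638, 1503, 1715 and 1394 CPM, followed by neoAC direct with 1057, 1128, 1116 and 964. neoAC CellC had 782, 793, 801 and 804 CPM and NSCs 710, 911, 620 and 704, and these groups overlapped (log2 difference 0.11, interval -0.08 to 0.30, edgeR adjusted p = 0.267). The difference was called, as NSC minus neoAC CellC, with DESeq2 size factors and in the DESeq2 Wald test (-0.26 in both), with library size alone (-0.34), with at least 10 counts in every library (-0.42) and without NSC replicate 2 (-0.23). Adult cells were lowest, at 387, 421, 408 and 410 CPM in culture and 343, 367, 337 and 338 after direct isolation. Every adult library therefore lay below every NSC library.

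Dtna (chr18:23415135-23659715, plus strand) had CPM of 449, 429, 401 and 383 in AGES. Its CPM were 374, 354, 348 and 416 in neoAC direct and 350, 362, 374 and 377 in AdAC direct. neoAC direct overlapped both other groups, while every AGES library lay above every AdAC direct library, and neither neighbouring difference passed the test (log2 differences 0.16, interval -0.06 to 0.37, and 0.03, interval -0.19 to 0.25). neoAC CellC had 191, 226, 237 and 223 CPM, NSCs 122, 83.3, 127 and 137, and AdAC CellC 94.8, 99.0, 93.3 and 93.1. NSCs lay only 0.31 above AdAC CellC on the log2 scale and the libraries overlapped (edgeR adjusted p = 0.0109). That call was lost, with log2 differences of 0.17 with library size as the only scaling, 0.094 with at least 10 counts in every library, 0.22 in a fit of these groups alone, 0.20 with a replicate block added and 0.23 without NSC replicate 4. An exon of Gm47898 on the opposite strand overlaps 90 of the 16930 exonic bases of Dtna, and whether counting used the strand is not given in the sources used here.

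Mlc1 (chr15:88955884-88979007, minus strand) was the most abundant member per kilobase of exon in every group, and in AGES it reached 1028 ± 37.3 CPM per kb (SD, n = 4), rank 27 of the genes tested. Its CPM there were 2983, 2818, 2767 and 2955, against 473, 490, 547 and 453 in the NSCs they came from. neoAC direct had 1728, 1856, 1877 and 1626 CPM and neoAC CellC 1301, 1433, 1484 and 1333. AdAC direct had 784, 774, 757 and 707 CPM, and AdAC CellC 181, 260, 207 and 254. The 6 groups did not overlap at all, and all 5 neighbouring pairs in their order passed the test (edgeR adjusted p between 1.04e-10 and 0.00233).

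Hepacam, the gene of its partner (chr9:37367351-37386575, plus strand), had levels that could not be separated in 3 groups that differed in Mlc1. AGES had 909, 921, 750 and 630 CPM, AdAC direct 819, 832, 795 and 734, and neoAC direct 741, 781, 794 and 642. The log2 differences between these neighbours were 0.01 (interval -0.24 to 0.26, edgeR adjusted p = 0.928) and 0.10 (interval -0.15 to 0.35, edgeR adjusted p = 0.451). Below them came neoAC CellC with 408, 431, 467 and 413 CPM and NSCs with 175, 145, 147 and 165. AdAC CellC were lowest, with 67.3, 104, 101 and 100 CPM, and no library of these last 3 groups overlapped another group.

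**Figure D2:**
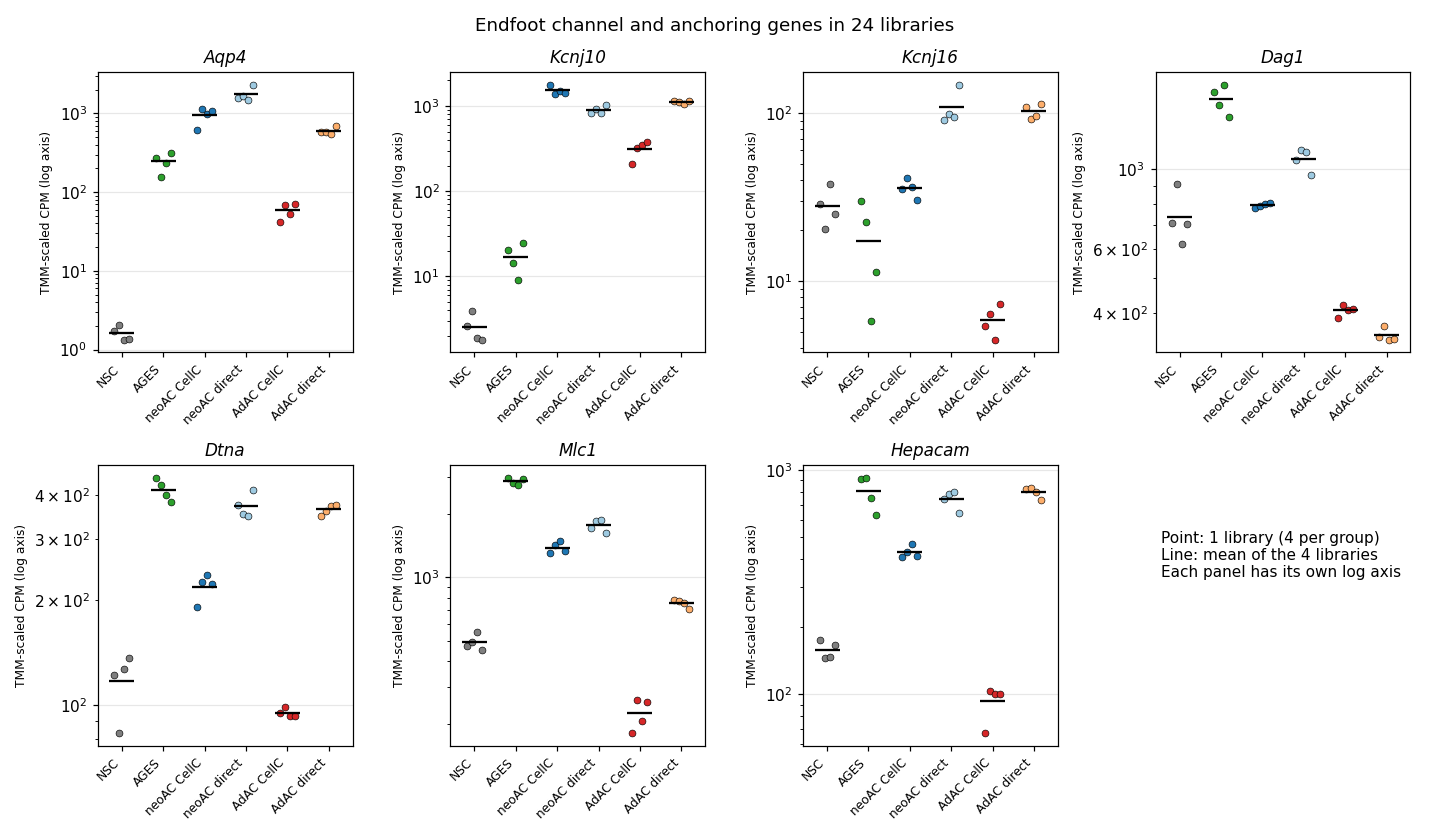
TMM-scaled CPM of the 7 genes in each library (points) by group, with lines at the means of 4 libraries; each panel has its own log axis. AdAC CellC are the lowest of the primary cells for every gene except Dag1, Kcnj10 is lower in NSC and AGES than in any primary cells, and the group means of Dag1 stay within 4.52-fold.

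Cultured adult astrocytes were lower than directly isolated ones in 6 of the 7 genes. In this comparison edgeR called 78.0% of all genes tested, 38.8% higher and 39.2% lower. Removal of the olfactory bulb and cerebellum is stated for direct isolation of adult cells and not for their cultures. A difference in dissection therefore cannot be told apart from culture. The libraries of the groups did not overlap for any of the 7 members, nor for 76.3% of all genes. Kcnj16 fell by 4.11 on the log2 scale (SE 0.35, edgeR adjusted p = 5.73e-10), from 102 ± 9.98 to 5.91 ± 1.24 CPM (SD, n = 4). Aqp4 fell by 3.36 (SE 0.22, edgeR adjusted p = 1.92e-12) and Hepacam fell by 3.10 (SE 0.13, edgeR adjusted p = 1.01e-16), while Dtna fell by 1.94, Kcnj10 fell by 1.81 and Mlc1 fell by 1.74. The one exception was Dag1, the dystroglycan gene, which was 0.23 higher in culture (SE 0.09, edgeR adjusted p = 0.0244). That difference did not pass with DESeq2 size factors (0.15, edgeR adjusted p = 0.138), without a filter (0.13, edgeR adjusted p = 0.236), in the DESeq2 Wald test (adjusted p = 0.12) or without AdAC direct replicate 3 (0.22, edgeR adjusted p = 0.0586). The median of the members was -1.94, beside 0.00 over all genes tested. Astrocyte markers fell along with them, 7 of 8 being lower, and so did 6 of 7 oligodendrocyte and 5 of 5 ependymal markers, whereas 4 of 6 meningeal fibroblast markers rose. AdAC CellC replicate 1 was the lowest of its group in Aqp4, Kcnj10, Mlc1 and Hepacam as in the astrocyte sum, and the 7 calls held when it was left out together with neoAC direct replicate 2.

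Culturing neonatal astrocytes also lowered 6 of the 7 genes against 65.7% of all genes called, 34.4% higher and 31.3% lower, but the exception was another gene. The groups were without overlap for all 7, and for 58.0% of all genes. Kcnj10 was higher in culture by 0.76 (SE 0.21, edgeR adjusted p = 0.00339), from 901 ± 87.3 to 1523 ± 177 CPM. Kcnj16, its partner, fell by 1.59 (SE 0.31, edgeR adjusted p = 0.00011). The log2 fold changes of Aqp4, Hepacam, Dtna, Dag1 and Mlc1 were -0.88, -0.78, -0.77, -0.42 and -0.35, with adjusted p between 5.49e-07 and 0.00233 in edgeR. With library size as the only scaling, which moved the median of all genes from 0.04 to 0.27, those of Dag1 (-0.19, edgeR adjusted p = 0.0514) and Mlc1 (-0.12, edgeR adjusted p = 0.264) did not pass. Of the astrocyte markers 6 of 8 fell and 1 rose, and 5 of 6 endothelial (median -4.58), 5 of 6 mural (median -4.01) and 5 of 7 microglial markers (median -1.72) fell too. The mural sum, however, was 238.6 to 516.8 CPM before and 302.9 to 664.6 CPM in culture, with Acta2 at 6.26 ± 1.63 and 429 ± 152 CPM. Of 6 meningeal fibroblast markers 4 rose and 1 fell (median 1.06), with sums of 163.5 to 262.9 CPM before and 363.9 to 536.8 CPM in culture. Oligodendrocyte markers rose in 5 of 7 cases and 1 fell, Cnp, the most abundant of them here (297 ± 30.7 to 192 ± 4.91 CPM), so that their sum was 321 to 394 CPM before and 247 to 330 CPM in culture. All 5 ependymal markers rose, with Foxj1 going from 115 ± 23.3 to 1241 ± 121 CPM.

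Whether culture acted differently at the 2 ages was tested as an interaction, which edgeR called for 68.6% of all genes, 35.4% positive and 33.2% negative. It was called for all 7 members, negative for 6 and positive for Dag1. Kcnj10 had -2.57 (SE 0.31, edgeR adjusted p = 8.96e-08), Kcnj16 -2.52 (SE 0.45, edgeR adjusted p = 4.01e-05) and Aqp4 -2.48 (SE 0.29, edgeR adjusted p = 8.3e-08). Hepacam followed with -2.31 (SE 0.17), and Mlc1 and Dtna had -1.39 (SE 0.14) and -1.17 (SE 0.15). For Dag1 the interaction was 0.66 (SE 0.13, edgeR adjusted p = 8.82e-05), since it fell in neonatal culture only. The median over the members was -2.31, beside 0.05 over all genes, and negative calls were also made for 7 of 8 astrocyte markers (median -2.01), 7 of 7 oligodendrocyte markers (median -3.48) and 5 of 5 ependymal markers (median -5.81). Positive calls were made for 6 of 6 neural stem cell (median 2.15), 5 of 6 endothelial (3.76), 4 of 6 mural (1.31) and 4 of 7 microglial markers (3.50). In these, 1 endothelial, 1 mural and 2 microglial markers were negative. Of 6 oligodendrocyte precursor markers 1 was positive and 3 were negative (median -1.18). Of 6 meningeal fibroblast markers 2 were positive and 3 negative (-0.63), and of 7 neuronal markers 3 were positive and 2 negative (1.12).

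**Figure D3:**
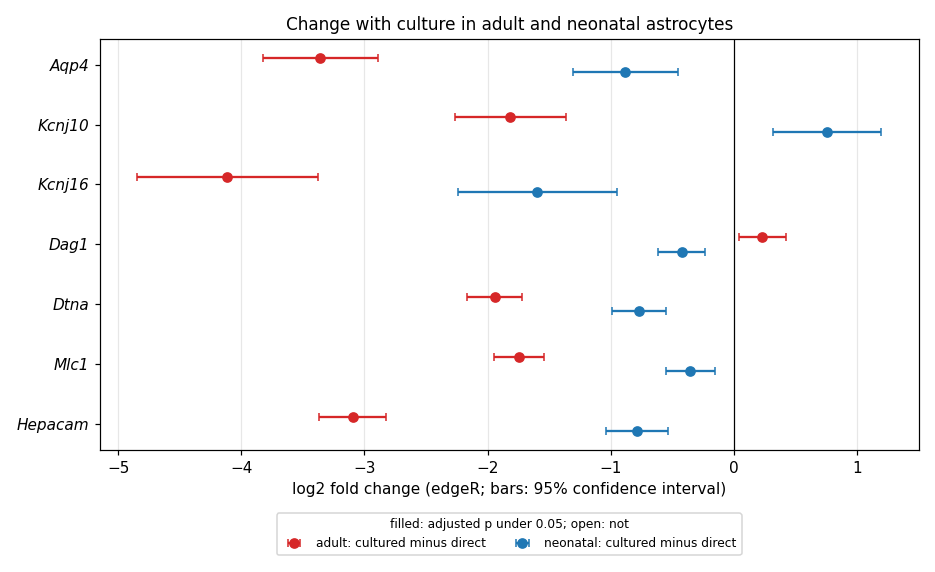
Log2 fold change of each gene, cultured minus directly isolated, in adult (red) and neonatal (blue) astrocytes, with 95% confidence intervals from edgeR; every point passed an adjusted p of 0.05. The adult point lies to the left of the neonatal point for each gene except Dag1, and Kcnj10 lies at 0.76 in neonatal and at -1.81 in adult cells.

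AGES had higher levels than NSCs in 6 of the 7 genes, in a comparison where 65.7% of all genes were called, 31.7% higher and 34.0% lower. BMP4, the absence of FGF and EGF and the change of coating came together and cannot be told apart. The libraries did not overlap for those 6, nor for 58.3% of all genes. Aqp4 rose by 7.24 on the log2 scale (SE 0.29, edgeR adjusted p = 1.29e-16), from 1.61 ± 0.326 to 245 ± 67.8 CPM, which is 152-fold. Kcnj10 rose by 2.73 (SE 0.26, edgeR adjusted p = 1.64e-09), but from 2.55 ± 0.957 to 17.0 ± 6.74 CPM. Mlc1, Hepacam, Dtna and Dag1 rose by 2.55, 2.34, 1.82 and 1.09. Kcnj16 had -0.69 (SE 0.32, 95% interval -1.35 to -0.04, edgeR adjusted p = 0.0593), a difference that passed when AGES replicate 1 (-1.08), AGES replicate 2 (-0.85) or NSC replicate 2 (-0.82) was left out. The median of the members was 2.34, beside 0.00 over all genes. Of the marker lists, 5 of 8 astrocyte genes rose, 4 of 6 neural stem cell genes rose and 2 fell (sums of 3908 to 4394 CPM in NSC and 6991 to 12128 in AGES), and 3 of 6 oligodendrocyte precursor genes fell (1800 to 2149 and 263 to 359 CPM). The ependymal and oligodendrocyte sums were at most 79.3 and 42.8 CPM in both groups.

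Set against cultured primary astrocytes, AGES were higher in the 4 members that belong to the anchoring and adhesion complexes, while the companion genes of these complexes, given further on, went both ways. Dag1, Dtna, Mlc1 and Hepacam were above neoAC CellC by 0.98, 0.92, 1.05 and 0.90, and above AdAC CellC by 1.94, 2.13, 3.68 and 3.11 (SE between 0.09 and 0.13 for all 8). The channel genes differed. Kcnj10 differed from neoAC CellC by -6.49 on the log2 scale (SE 0.27, edgeR adjusted p = 2.33e-16), or 89.5-fold lower, and from AdAC CellC by -4.21 (SE 0.25, edgeR adjusted p = 1.44e-13), or 18.5-fold lower. Aqp4 differed by -1.96 from neoAC CellC (SE 0.21) and was 2.07 above AdAC CellC (SE 0.21). Kcnj16 differed by -1.04 from neoAC CellC (SE 0.31, edgeR adjusted p = 0.00519) and 1.55 above AdAC CellC (SE 0.34, edgeR adjusted p = 0.000271), where its libraries overlapped. In counts, 4 members were higher and 3 lower than in neoAC CellC, where 34.1% and 40.5% of all genes were, 74.6% in all. Against AdAC CellC 6 members were higher and 1 lower, beside 31.0% and 45.2% of all genes, 76.2% in all. The libraries did not overlap for 7 members in the former and 6 in the latter comparison, and for 69.6% and 73.1% of all genes. All genes tested had a median of -0.23 in the latter comparison and -0.07 in the former. Against AdAC CellC 6 of 8 astrocyte markers were higher in AGES and 2 lower, while 7 of 7 oligodendrocyte, 6 of 6 mural, 6 of 6 endothelial, 5 of 5 ependymal and 7 of 7 microglial markers were lower. Against neoAC CellC 3 astrocyte markers were higher and 3 lower, while 5 of 5 ependymal, 6 of 6 meningeal fibroblast and 5 of 6 mural markers were lower. Both comparisons and the previous one share the AGES libraries, and NSC and AGES come from another genetic background and medium than the primary cells, which cannot be told apart from their origin.

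**Figure D4:**
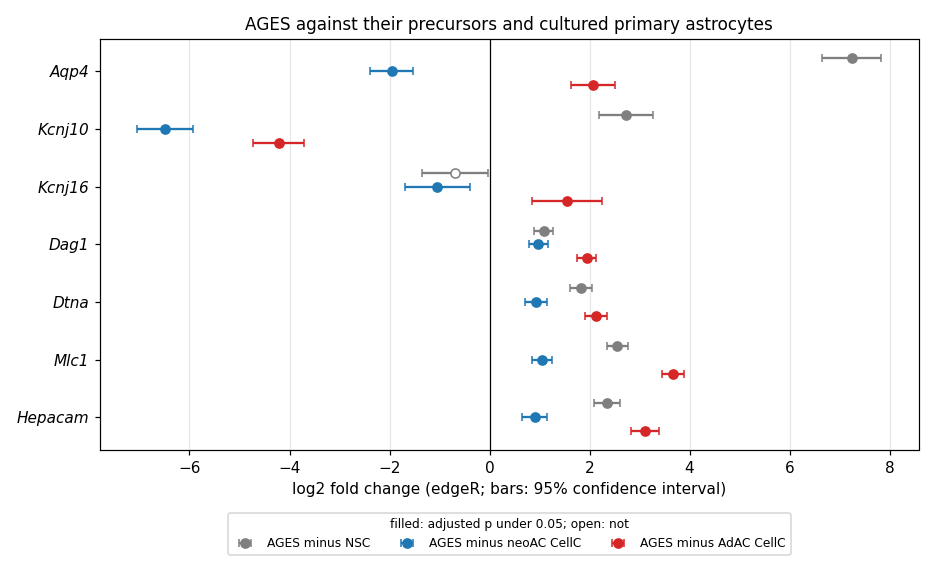
Log2 fold change of each gene in AGES against NSC (grey), neoAC CellC (blue) and AdAC CellC (red), with 95% confidence intervals from edgeR; filled points passed an adjusted p of 0.05. Kcnj10 is the member for which AGES lie above NSC and below both primary cultures, while Dag1, Dtna, Mlc1 and Hepacam lie right of 0 in all 3 comparisons.

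Neonatal and adult cells were compared before and after culture, with the same libraries as above. The ages also differed in the kit used for dissociation, Neural Tissue for neonatal and Adult Brain for adult cells. Debris and red blood cells were removed from the adult cells only. Neonatal cells came from cerebral tissue with the meninges removed. For adult cells removal of meninges is not stated, and removal of the olfactory bulb and cerebellum is stated for direct isolation. In these comparisons and in the interaction, age and isolation protocol cannot be told apart. Between the 2 kinds of directly isolated cells, Aqp4, Dag1 and Mlc1 were higher in neonatal cells by 1.55 (SE 0.21), 1.62 (SE 0.09) and 1.23 (SE 0.10), where 71.4% of all genes were called, 35.0% higher and 36.4% lower. The groups were without overlap for 4 members, Kcnj10 being the other, and for 64.9% of all genes. Kcnj10, Kcnj16, Dtna and Hepacam did not pass, with differences of -0.30, 0.08, 0.03 and -0.10 and 95% intervals that reached no further than -0.74 and 0.70. After culture all 7 were higher in neonatal cells, against 63.8% of all genes called, 28.5% higher and 35.2% lower, and without overlap, as were 62.2% of all genes. The differences were then 4.03 for Aqp4 (SE 0.23), between 2.21 and 2.62 for Hepacam, Kcnj10, Kcnj16 and Mlc1, 1.20 for Dtna and 0.97 for Dag1. In the same comparison all 8 astrocyte and all 5 ependymal markers (median 2.63) were higher and all 7 oligodendrocyte markers lower in neoAC CellC. Between directly isolated cells 3 of 8 astrocyte markers were higher and 1 lower in neoAC direct, all 6 neural stem cell and all 6 meningeal fibroblast markers were higher, and all 5 ependymal and all 7 oligodendrocyte markers were lower.

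Ratios of 2 members within a library do not depend on scaling between libraries. They were taken as log2 of counts per exonic length with 0.5 added to each count, and compared between groups by an exact permutation test, two-sided, of 4 against 4 libraries, whose smallest possible p is 0.0286 (0.0333 after Benjamini-Hochberg adjustment over the 21 tests). In directly isolated cells Kcnj10 exceeded Kcnj16 by 6.19-fold in neonatal and 7.93-fold in adult cells per unit of length. In culture it did so by 31.1-fold and 38.5-fold, and the 2 cultures overlapped (exact permutation p = 0.257). In AGES the genes were close to even, at 1.25 times as much Kcnj16 as Kcnj10 with log2 ratios of 1.02, 1.13, -0.21 and -0.66, and in NSCs Kcnj16 led by 15.3-fold. Of the 7 comparisons only that of the 2 cultures failed to reach an exact p of 0.0286 for this ratio. The replicates of AGES (SD 0.89) and NSC (SD 0.81) were more spread than those of the primary cells (SD between 0.10 and 0.40).

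Mlc1 exceeded Hepacam per unit of length in every library. The ratio was 4.34 in AGES, 3.86 in neoAC CellC and 3.71 in NSC, and 2.87 in neoAC direct and 2.91 in AdAC CellC. It was 1.14 in AdAC direct, with log2 ratios of 0.19, 0.15, 0.19 and 0.20, and the highest of these lay below the lowest of every other group. The difference from AdAC direct was 1.36 for AdAC CellC (SE 0.09) and 1.34 for neoAC direct (SE 0.03), each with an exact permutation p of 0.0286. AGES could not be separated in this ratio from NSC (exact permutation p = 0.314) or neoAC CellC (exact permutation p = 0.343). By the geometric means of the groups, Aqp4 and Kcnj10 were within 2.14-fold of one another in NSC, both direct groups and neoAC CellC. Single libraries lay further apart, the furthest of these groups being neoAC CellC replicate 1 with a log2 ratio of -1.74. By the same means Kcnj10 exceeded Aqp4 by 6.21-fold in AdAC CellC and Aqp4 exceeded Kcnj10 by 12.9-fold in AGES. All 7 comparisons of this ratio reached an exact permutation p of 0.0286, with AGES above neoAC CellC by 4.60 (SE 0.39) and above AdAC CellC by 6.32 (SE 0.29) on the log2 scale.

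**Figure D5:**
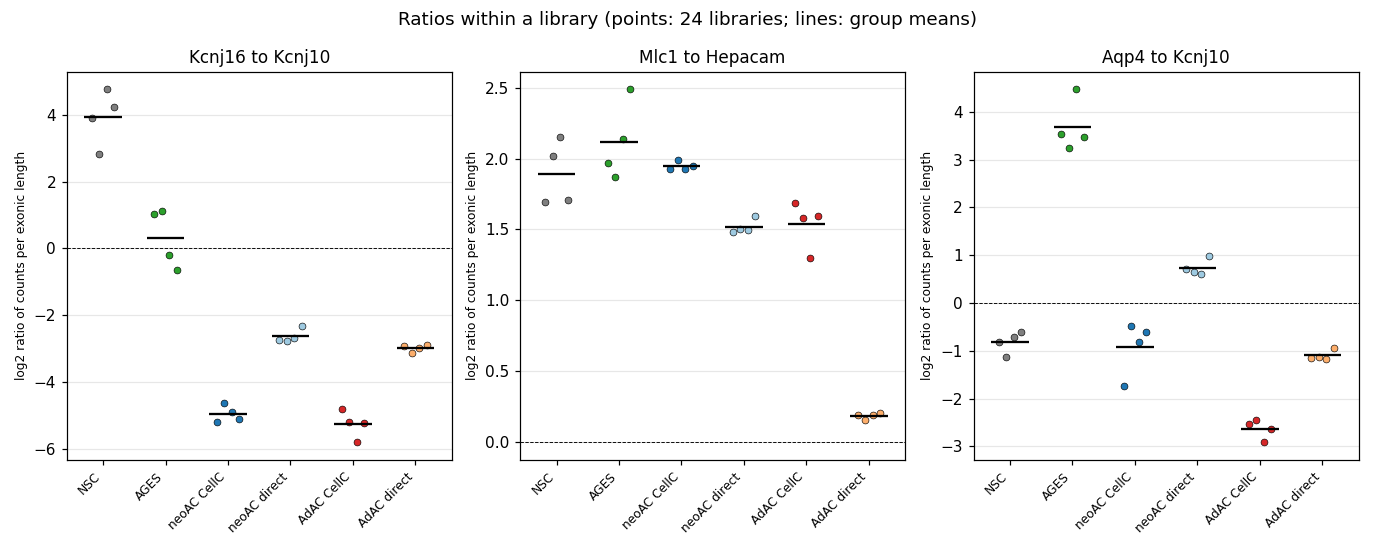
Log2 ratio of counts per exonic length within each library (points) by group, with lines at group means and a dashed line where both genes are even. Kcnj16 to Kcnj10 runs from 3.94 in NSC to -5.26 in AdAC CellC, Mlc1 to Hepacam lies near 0.18 in AdAC direct alone, and Aqp4 to Kcnj10 is highest in AGES at 3.69.

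Counts over the lists that follow stand beside the shares of all genes called in the same comparisons, 78.0% in adult culture, 65.7% in neonatal culture, 65.7% in AGES against NSC, 74.6% in AGES against neoAC CellC and 76.2% in AGES against AdAC CellC, and nothing particular to a list is read from them. The dystrophin complex links dystroglycan to the cytoskeleton, and its list held 10 genes beside Dag1 and Dtna, all tested. In AGES against NSC 8 rose and none fell, with a list median of 1.30 beside 0.00 over all genes. Utrn, the utrophin gene, rose by 2.24 (SE 0.08, edgeR adjusted p = 5.39e-18) from 86.6 to 408 CPM. In adult culture 4 were higher and 5 lower, where Dmd, the dystrophin gene, fell by 1.15 (SE 0.13) and Sgce fell by 1.01 (SE 0.09). In neonatal culture 4 were higher and 3 lower, and Dmd and Sgce, which had fallen in adult cells, rose by 0.36 (SE 0.13) and 0.61 (SE 0.09). AGES were higher in 6 and lower in 3 genes of the list than neoAC CellC, and higher in 6 and lower in 2 than AdAC CellC. Dmd was at 88.7 ± 20.1 CPM in AGES against 158 ± 10.2 in neoAC CellC and 66.2 ± 5.31 in AdAC CellC. Utrn was higher in AGES than in neoAC CellC and AdAC CellC by 1.49 and 1.48. Sgce and Sgcb, which encode sarcoglycans, were above AdAC CellC in AGES by 2.24 and 1.28.

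The next list held the genes that attach the laminin-binding sugars to dystroglycan. Of 16, all tested, 6 rose and 7 fell in adult culture (list median 0.02) and 3 rose and 7 fell in neonatal culture (-0.13), counts near the shares of all genes called. In AGES against NSC 2 rose and 10 fell, with a median of -0.56. Pomgnt1, which encodes a glycosyltransferase of this pathway, rose by 0.35 (SE 0.08) in adult culture and fell by 0.31 (SE 0.08) in neonatal culture. B4gat1, the gene of another, fell by 0.86 (SE 0.09) and 0.28 (SE 0.09).

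The basal lamina list, which joins the ligands of dystroglycan (laminins, agrin and perlecan) with collagen IV and nidogens, components that are not its ligands, had the highest median of the 7 lists in adult culture, 2.69, with 11 of 14 genes higher and 3 lower. Col4a1, a chain of collagen IV, rose by 4.16 (SE 0.23) from 73.0 ± 3.11 to 1301 ± 37.9 CPM, and Hspg2, which encodes perlecan, by 4.09 (SE 0.20) from 55.1 to 939 CPM. Lamc1, a laminin chain, rose by 2.33 (SE 0.13). In neonatal culture 8 rose and 4 fell (median 0.56), where Hspg2 rose by 1.97 and Agrn, the agrin gene, fell by 1.77. The interaction of culture and age was positive for 12 of 14 and negative for 1, beside 35.4% and 33.2% of all genes. The mural and meningeal fibroblast sums given above were highest in AdAC CellC as well, although 4 of the 6 mural genes fell in adult culture, and their part was not tested. In AGES against NSC 4 were higher, 1 was lower and 9 were not called. Against neoAC CellC 5 were higher and 8 lower in AGES (median -0.85), and against AdAC CellC 3 were higher and 10 lower (median -1.94). Agrn, at 1067 CPM in AGES, was among the higher genes, above neoAC CellC and AdAC CellC by 1.42 and 1.82.

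Of the 10 partners of MLC1 and GlialCAM, 7 fell and 3 rose in adult culture (median -2.60), and 5 fell and 1 rose in neonatal culture (-0.57). Gpr37l1 and Gprc5b, which encode receptors of the GlialCAM complex, fell by 4.70 (SE 0.41) and 2.36 (SE 0.09) in adult culture, and Gja1, a gap junction gene, fell by 2.84 (SE 0.29). AGES lay below neoAC CellC in 9 of 10 and above in 1, where Mlc1 and Hepacam themselves were higher. Gja1 was 59.4-fold lower in AGES than in neoAC CellC, at 10.3 ± 7.59 against 613 ± 73.2 CPM. It was not called between AGES and NSC (edgeR adjusted p = 0.0785), and 4 of the list rose there, Gpr37l1 by 2.42 (SE 0.38) and Gprc5b by 1.12 (SE 0.09).

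Among the 9 other aquaporins 5 passed the filter. In adult culture 1 was higher and 4 were lower, and in neonatal culture 1 was higher and 3 were lower. Aqp9, an aquaglyceroporin, and Aqp11, which lies inside the cell, had the direction of Aqp4 in both cultures. They fell by 4.01 (SE 0.15) and 2.46 (SE 0.18) in adult and fell by 1.36 (SE 0.13) and 1.54 (SE 0.17) in neonatal culture, but they reached only 13.9 and 10.6 CPM in AdAC direct. Aqp11 rose by 2.36 (SE 0.17) from NSC to AGES, to 27.2 CPM, and Aqp9 was at 7.20 ± 0.408 CPM in AGES against 0.0632 ± 0.0349 in NSC, too few counts for a fold. Aqp1, the water channel of the choroid plexus, differed by -4.12 and -4.04 between AGES and AdAC CellC or neoAC CellC. Aqp5, the gene that was higher in adult culture, had group means of 0.0828 to 2.03 CPM. Aqp7, named after its values were seen as the gene that was higher in neonatal culture, was at 1.71 ± 0.324 CPM there against 0.0150 before, a total of 2 counts in 4 libraries.

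All 21 other inward rectifier and two-pore potassium channel genes were tested. In adult culture 4 rose and 11 fell, and in neonatal culture 7 rose and 11 fell. Kcnk1, a potassium channel gene of astrocytes, had the directions of Kcnj10, since it fell by 3.20 (SE 0.11) in adult culture and rose by 2.06 (SE 0.11) in neonatal culture, with an interaction of -5.27 (SE 0.15). AGES had lower levels than AdAC CellC in 16 of 21 and higher levels in 4, and lower levels than neoAC CellC in 12 and higher levels in 4, where 45.2% and 40.5% of all genes were called lower. Kcnk1 stood at 0.974 ± 0.304 CPM in AGES against 143 ± 6.43 in neoAC CellC, and Kcnk2 at 0.378 against 97.0 CPM. Kcnk5 fell by 4.71 (SE 0.22) from NSC to AGES, and Kcnk13 was highest in AdAC direct, at 67.2 CPM, and fell by 2.42 (SE 0.15) in adult culture. Of the 5 genes of the volume-regulated anion channel, 3 rose and 1 fell in each culture, Lrrc8c rising by 2.49 (SE 0.11) and Lrrc8b by 1.72 (SE 0.17) in neonatal cells. Lrrc8a, the obligatory subunit, fell by 1.32 (SE 0.12) in adult culture, and AGES lay below AdAC CellC in 4 of 5, with -3.44 (SE 0.19) for Lrrc8b, -2.06 (SE 0.11) for Lrrc8c and -1.27 (SE 0.09) for Lrrc8d, and above it in Lrrc8a by 1.56 (SE 0.12).

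For each member the 3 genes with the most similar log2 CPM over the 24 libraries were taken from 10867 genes with a mean of at least 10 CPM. These libraries form 6 groups, so a likeness is mostly one of 6 group means, and it is given as a description. Dtna and Hepacam had each other among their 3 (Pearson r = 0.973, Spearman rho = 0.860), and both had Bmpr1b, which encodes a BMP receptor (r = 0.969 and 0.975). Tmem106b, a lysosomal membrane protein gene, completed the list of Dtna and Cacnb1, a calcium channel subunit gene, that of Hepacam. Mlc1 had Tspan3, a tetraspanin gene, and Myo10, a myosin gene, among its 3 (r = 0.969 and 0.967), and Dag1 was most like Fxyd6, a modulator of the sodium pump, Rtn1 and Rragd (0.967 to 0.979). Kcnj10 was most like Pla2g7, Acadvl, an enzyme of fatty acid oxidation, and Slc22a4 (0.985 to 0.989). Aqp4 was most like Ppp2r2b, 6330403K07Rik and Pink1 (0.974 to 0.979), and Kcnj16 most like Lsamp, Elovl2, a fatty acid elongase, and Phka1 (0.936 to 0.962). Between members the coefficients ran from 0.973 for Dtna and Hepacam to -0.355 for Kcnj10 and Dag1, and Kcnj10 and Kcnj16 had 0.388 (Spearman rho = 0.543).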

How the data were processed

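RNA of 24 libraries in 6 groups of 4 was sequenced as stranded, poly(A)-selected libraries with paired reads of 100 nt. The authors demultiplexed with bcl2fastq 2.20, aligned with STAR 2.7.3a to GRCm38, keeping reads with up to 20 alignments, and deposited raw counts per gene from featureCounts, run over Gencode exons grouped by gene identifier. The options stated for it name neither strand nor read pairs, so whether counting used either is not given in the sources used here. Names, positions and exonic lengths came from Gencode vM21, which matched 49412 of the 49671 genes (99.48%).

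From these counts edgeR 4.0.16 in R 4.3.3 was run as 1 quasi-likelihood fit of the 6 groups, with TMM scaling, its filter on low counts (19691 genes left), robust dispersions and Benjamini-Hochberg adjustment over all of them at 0.05. Levels are TMM-scaled CPM. Promoters came from RefSeq. Ratios within libraries were tested by exact permutation in SciPy 1.17.1. Alternatives were other scalings and filters, DESeq2 1.42.0, a fold threshold, fits of the compared groups with and without a replicate block, and leaving out each library. The fit was tested on simulated data.

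The members, the 7 companion lists and the 10 marker lists were chosen with earlier results of these data known. Genes named were the members, the 4 most abundant of each companion list, the 3 most abundant of each marker list and the 3 genes most correlated with each member. Some genes that the rule names are not reported here. The intervals cover the spread between 4 libraries a group.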

Additional observations from a re-analysis of the deposited data

Results flagged for a closer look

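Within the 42 sets of 4 libraries (7 genes in 6 groups), of which chance would single out about 1 in 20, 2 held a library far from the rest. For Kcnj16 this was neoAC direct replicate 4, with 147.2 CPM against 98.11 CPM in the next library. For Hepacam it was AdAC CellC replicate 1, with 67.29 CPM against 100.3 CPM in the next, the library that also had the lowest astrocyte marker sum of its group.

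The change with culture differed between adult and neonatal astrocytes for all 7 genes when the difference itself was tested as an interaction in edgeR. On the log2 scale it was -2.48 for Aqp4, -2.57 for Kcnj10, -2.52 for Kcnj16, 0.66 for Dag1, -1.17 for Dtna, -1.39 for Mlc1 and -2.31 for Hepacam. All 4 libraries of cultured adult cells lay below, and all 4 of cultured neonatal cells above, their directly isolated counterparts in Kcnj10, and the reverse held for Dag1.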

How the results depend on the processing

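With 0.1 or 2 in place of 0.5 added to each count, every comparison of ratios within libraries kept its direction and side of the threshold. With 1 library left out the ratios are values with no test, since 3 against 4 libraries cannot give an exact p below 0.0571. Each difference kept its sign, and that of Mlc1 to Hepacam in AGES against neoAC CellC, the smallest, ranged from 0.047 to 0.25. All 25 alternative counts for the interaction stayed within 1.5 times the value reported. Of the members called per comparison, 115 alternative counts stayed within 1.5 times the value reported. Requiring an absolute log2 fold change over 1 left 1 member called for neonatal culture and 4 for AGES against neoAC CellC, and 35, 27, 46 and 38 companion genes for neonatal culture, AGES against NSC, AGES against neoAC CellC and neoAC CellC against AdAC CellC. At least 10 counts in every library left 43, 36, 41, 38 and 38 companion genes called for adult culture, neonatal culture, AGES against AdAC CellC, AGES against neoAC CellC and the interaction, fewer genes being tested.

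Neighbours in the orders of levels no longer called with the fold criterion were Aqp4 in neonatal culture (-0.88) and neoAC CellC against AdAC direct (0.67), Dag1 in adult (0.23) and neonatal culture (-0.42), AGES against neoAC direct (0.55) and NSC against AdAC CellC (0.86), Dtna in neoAC CellC against AdAC direct (-0.74), NSC against neoAC CellC (-0.90) and NSC against AdAC CellC (0.31), Mlc1 in neonatal culture (-0.35), AGES against neoAC direct (0.70), neoAC CellC against AdAC direct (0.88) and NSC against AdAC direct (-0.62), and Hepacam in neonatal culture (-0.78) and NSC against AdAC CellC (0.76). DESeq2 size factors called Kcnj10 in neoAC CellC against AdAC direct (0.48) and Dag1 in NSC against neoAC CellC (-0.26), lost Dag1 in adult culture (0.15) and turned Hepacam in AGES against AdAC direct (-0.030), and the DESeq2 Wald test gave 0.48, -0.26, 0.15 and -0.030 for these. Library size alone called that Kcnj10 difference (0.62), Kcnj16 in AGES against NSC (-0.76) and that of Dag1 with NSC (-0.34), lost Dag1 (-0.19) and Mlc1 (-0.12) in neonatal culture and Dtna in NSC against AdAC CellC (0.17), and turned Dtna in neoAC direct against AdAC direct (-0.037) and Hepacam in AGES against AdAC direct (-0.13). It moved the median of all genes in neonatal culture from 0.04 to 0.27, with 8628 genes called higher and 4468 lower in place of 6766 and 6170, and in AGES against neoAC CellC from -0.07 to -0.37, with 4504 and 9822 in place of 6710 and 7977. No filter lost Dag1 in adult culture (0.13). At least 10 counts called Kcnj10 (0.53), Kcnj16 (-0.66) and Dag1 (-0.42) in the same pairs, the last 2 being NSC against neoAC CellC, lost Dtna in NSC against AdAC CellC (0.094) and turned Dtna in neoAC direct against AdAC direct (-0.0021) and Hepacam (-0.12). The causes were not tested.

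As deviations from their group means, same-numbered libraries correlated between -0.0953 and 0.106 in 28 pairs, and 8 correlated best with their own number. The 28 pairs include neonatal with adult cells and AGES with primary cells. These values cannot exclude that direct and cultured libraries came from shared isolations. With the groups compared fitted alone, without and with a replicate block, Kcnj10 was called in neoAC direct against AdAC direct (-0.27 and -0.27) and neoAC CellC against AdAC direct (0.48 and 0.47) and Kcnj16 in NSC against neoAC CellC (-0.48 and -0.51), and Dtna was lost in NSC against AdAC CellC (0.22 and 0.20).

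Leaving out 1 library at a time gave ranges of -1.08 to -0.40 for Kcnj16 in AGES against NSC, -0.11 to 0.15 for Kcnj16 in neoAC direct against AdAC direct (turned without neoAC direct replicate 4), 0.22 to 0.27 for Dag1 in adult culture, -0.23 to -0.041 for Dag1 in NSC against neoAC CellC (called without NSC replicate 2), -0.025 to 0.063 for Dtna in neoAC direct against AdAC direct (turned without neoAC direct replicate 4), 0.23 to 0.44 for Dtna in NSC against AdAC CellC (lost without NSC replicate 4) and -0.061 to 0.11 for Hepacam in AGES against AdAC direct (turned without AGES replicate 1 or 2 or AdAC direct replicate 4). Ranked by Spearman's rho, 0, 0, 1 and 1 of the 3 genes named for Aqp4, Kcnj10, Dtna and Hepacam stayed among the 10 most correlated. Among the members counts were lowest for Aqp4 and Kcnj10 in NSCs, and among companion genes Aqp9 in NSC, Aqp7 in most groups, Aqp5 in groups other than AGES and AdAC CellC, and Kcnk2 and Kcnk13 in AGES rest on few counts.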
